A study of Mus musculus with 20 samples.

Results

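The promoters of 10 genes encoding nuclear receptors, xenobiotic sensors and a coactivator were examined in mouse sperm. They were chosen by gene name, as receptors that bind phthalate metabolites or other xenobiotics together with the partners of these receptors. The 10 genes are Ppara, Ppard, Pparg, Ppargc1a, Rxra, Rxrb, Rxrg, Nr1i2, Nr1i3 and Ahr, and each had 1 of the 22480 promoter probes of the series. None of the 10 promoters was missing from the table. Each probe spans 2200 bp, from 2 kb upstream to 200 bp downstream of the gene start.

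Sperm of 8-week-old males was analyzed by MBD-sequencing in 4 groups of 5 libraries, 20 in all. The DEHP groups, C57BL/6J and FVB/N, were sons of dams given di-(2-ethylhexyl)phthalate in corn oil by mouth at a daily 300 mg/kg between gestation days 9 and 19, while control groups of both strains were sons of dams given corn oil over the same days. All animals were wild type, sperm was released from the epididymis and vas deferens, and the number of litters behind each group is not given in the sources used here. DEHP libraries and control libraries were submitted separately for preparation and sequencing, with both strains in each submission, so the effects of treatment and of submission cannot be told apart.

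MBD-sequencing enriches fragmented DNA with a protein domain that binds methylated CpG. Read numbers at a promoter thus follow both how much of it is methylated and how many CG sites it holds. The unit used here is the normalized read per probe. Values below are written as the mean ± SD over the 5 libraries of a group, as deposited. No value of a single library was used, so no test was run. A difference between groups was instead called when it was larger than the larger of both SDs. A stricter rule asked whether the ranges that a mean and an SD allow for 5 libraries were disjoint. For each rule the share of all promoters that met it is given.

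The peroxisome proliferator-activated receptors (PPARs) are ligand-activated transcription factors of lipid metabolism, and the monoester to which DEHP is hydrolyzed is a known activator of PPARα and PPARγ. PPARs bind DNA as heterodimers with a retinoid X receptor (RXR), at direct repeats of the half-site AGGTCA spaced by a single base. The constitutive androstane receptor CAR (Nr1i3) and the pregnane X receptor PXR (Nr1i2) also pair with RXR and drive drug-metabolizing enzymes, mainly in liver and intestine. The aryl hydrocarbon receptor AHR belongs to another protein family, pairs with ARNT and binds xenobiotic response elements. In most tissues, CG-rich promoters carry little methylation while CG-poor sequence is mostly methylated, and mature sperm shows the same broad pattern.

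Sequences are given for the promoters with the highest mean over the 4 groups (Rxrb) and the lowest (Pparg), because both are rich in CG sites and yet lie at opposite ends of the measured levels. These levels are of the whole 2200 bp probes and not of the printed windows. The Rxrb window lies in a stretch shared with the probe of Slc39a7, which had fewer reads, as described below. Ppargc1a and Nr1i2 were added after the values were seen, as CG-poor promoters. Each window runs from 250 bases before to 50 bases after a RefSeq start in GRCm38.p6, lies whole inside the probe and is written 5′ to 3′ on the gene's strand, with CG sites in capitals. The Rxrb window (chr17:34031562-34031861, plus strand) holds 37 CG sites and 68.67% G and C. The Pparg window (chr6:115360894-115361193, plus strand) holds 44 CG sites and 80.33% G and C. The Ppargc1a window (chr5:51567676-51567975, minus strand) holds 5 CG sites, and the Nr1i2 window (chr16:38294775-38295074, minus strand) holds 2.
Rxrb: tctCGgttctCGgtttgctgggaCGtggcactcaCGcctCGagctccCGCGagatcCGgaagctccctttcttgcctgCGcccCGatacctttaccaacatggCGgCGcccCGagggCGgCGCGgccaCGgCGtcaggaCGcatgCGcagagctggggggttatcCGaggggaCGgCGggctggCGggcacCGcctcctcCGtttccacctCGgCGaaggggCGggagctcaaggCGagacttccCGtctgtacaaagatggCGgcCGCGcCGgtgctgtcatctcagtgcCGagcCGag
Pparg: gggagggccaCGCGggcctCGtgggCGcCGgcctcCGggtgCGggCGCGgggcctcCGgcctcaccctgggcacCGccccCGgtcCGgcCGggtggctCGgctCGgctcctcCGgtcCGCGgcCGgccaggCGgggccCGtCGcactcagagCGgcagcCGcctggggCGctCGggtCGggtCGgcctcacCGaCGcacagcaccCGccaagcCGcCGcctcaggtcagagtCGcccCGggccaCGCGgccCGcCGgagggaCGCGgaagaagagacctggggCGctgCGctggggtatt
Ppargc1a: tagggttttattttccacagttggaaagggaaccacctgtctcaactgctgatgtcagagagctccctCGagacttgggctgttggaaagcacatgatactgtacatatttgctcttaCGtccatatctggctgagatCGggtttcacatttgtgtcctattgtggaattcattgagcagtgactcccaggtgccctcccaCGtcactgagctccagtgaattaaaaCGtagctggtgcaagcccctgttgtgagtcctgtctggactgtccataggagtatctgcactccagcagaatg
Nr1i2: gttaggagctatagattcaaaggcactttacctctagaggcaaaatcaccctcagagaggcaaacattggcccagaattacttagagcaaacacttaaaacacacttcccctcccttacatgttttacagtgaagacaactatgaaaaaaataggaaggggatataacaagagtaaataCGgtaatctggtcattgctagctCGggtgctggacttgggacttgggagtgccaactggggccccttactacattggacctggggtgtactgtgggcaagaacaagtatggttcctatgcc

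RefSeq windows of this kind were found for 9 of the 10 genes, and 8 of these genes had a window whole inside the probe. Pparg, Rxra, Rxrb and Rxrg also had windows of other starts with 0 bases inside the probe. The window of Ppara shared 238 of its 300 bases with the probe. Of the windows inside a probe, the densest were those of Rxra with 55 CG sites and 83.0% G and C, and of Pparg. Those of Nr1i3 and Nr1i2 held 3 and 2 CG sites.

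Levels at the 10 promoters spread over most of the ranks of the 22480 promoters. Rxrb, the RXR subtype expressed most widely, had 46.5 ± 20 normalized reads in C57BL/6J controls and 17.7 ± 7.6 with DEHP, and 33.4 ± 12.8 in FVB/N controls and 21.5 ± 4.3 with DEHP. Its mean over the 4 groups, 29.8, was higher than that of 97.6% of promoters. At the other end, Pparg, the receptor that drives fat cell formation, had 1.1 ± 1.6, 1.9 ± 1.2, 0.9 ± 0.9 and 1.1 ± 1.0 in the same order of groups. Ppara, the PPAR of fatty acid oxidation in liver, was as low, at 1.8 ± 2.1, 1.9 ± 1.6, 0.5 ± 1.1 and 1.1 ± 0.7. In their probes, both receptors that the DEHP metabolite activates thus had few captured reads in every group, between percentiles 5.33 and 21.2 of all promoters. The RefSeq start of Ppara, chr15:85735776, lies just past the end of its probe at 85735763. Pparg has further RefSeq starts, with 13 and 2 CG sites in their windows, which lay outside its probe and were not measured.

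Since every probe has the same length, levels can be ordered between genes. By the mean of the 4 groups the order was Rxrb (29.8), Ppargc1a (18.6), Rxrg (18.0), Ppard (13.7), Nr1i2 (11.3), Nr1i3 (10.6), Rxra (5.72), Ahr (2.33), Ppara (1.32) and Pparg (1.25). In C57BL/6J controls, Rxrb exceeded the next promoter, Rxrg, by 20.7 normalized reads, slightly more than the larger SD of 20. Rxrg, Ppargc1a, Ppard, Nr1i3 and Nr1i2 followed one another there by less than the larger SD at each step. Nr1i2 exceeded Rxra by 7.4 and Rxra exceeded Ahr by 5.5, both above the larger SD of 3.9, while Ahr, Ppara and Pparg were not separated at either step. In DEHP libraries Rxrb no longer led. Ppargc1a and Rxrb differed by 0.1 in C57BL/6J DEHP and had the same mean of 21.5 in FVB/N DEHP.

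**Figure D1:**
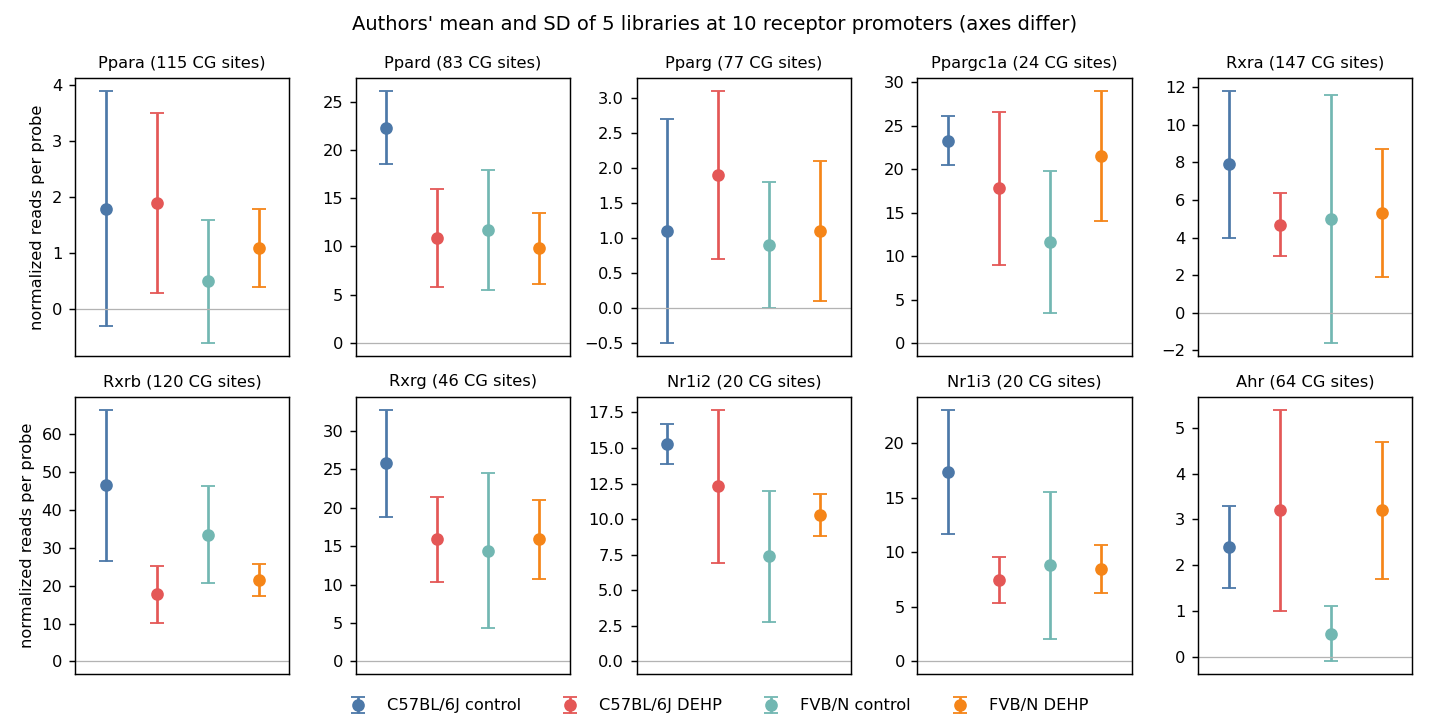
Normalized reads per probe at the 10 promoters, 1 panel per gene with its own vertical axis. Points are the authors' means and bars the authors' SD of 5 libraries in the 4 groups (colors); some SD bars reach below 0 although reads cannot, as at Ppara and Rxra in FVB/N controls, and Rxrb shows the highest means, 17.7 to 46.5.

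The number of CG sites separated the promoters into kinds. Nr1i2 and Nr1i3 held 20 CG sites each and Ppargc1a 24. Rxrg held 46, Ahr 64, Pparg 77, Ppard 83, Ppara 115, Rxrb 120 and Rxra 147. Read per 100 CG sites, the order in C57BL/6J controls changed, with Ppargc1a (97.1 normalized reads per 100 CG sites), Nr1i3 (87.0) and Nr1i2 (76.5) above Rxrg (56.1) and Rxrb (38.8). Ppard followed at 26.9, and Rxra, Ahr, Ppara and Pparg lay at 5.37, 3.75, 1.57 and 1.43. Per CG site, the 3 CG-poor promoters thus stood above the others in C57BL/6J controls. Such a division takes reads to rise in proportion to the number of sites, which the medians below do not show.

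Promoters of similar CG content give a reference for each gene. In C57BL/6J controls the median level was 3.5 normalized reads for promoters with 1 to 20 CG sites, 14.2 for those with 21 to 40, 5.2 for 41 to 60 and 2.6 for 101 to 150. Rxrb, with 120 CG sites, was above 99.4% of the 1522 promoters of its band in C57BL/6J controls, and between percentiles 99.4 and 99.9 in all 4 groups. Ppard, the PPAR present in nearly all tissues, also stood high for its CG content, at percentiles 91.0 to 95.4 of its band. Rxra, with the most CG sites of the 10, was at percentiles 73.1 to 81.3 of its band despite means of only 4.7 to 7.9. Pparg lay at percentiles 8.07 to 17.3 of promoters with 61 to 80 CG sites. Ppara lay between 5.35 and 37.9 in its band. The 3 CG-poor promoters lay at percentiles 64.1 to 91.8 (Ppargc1a), 83.9 to 91.6 (Nr1i2) and 67.5 to 94.2 (Nr1i3) of their bands, so none reached the percentiles of Rxrb.

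**Figure D2:**
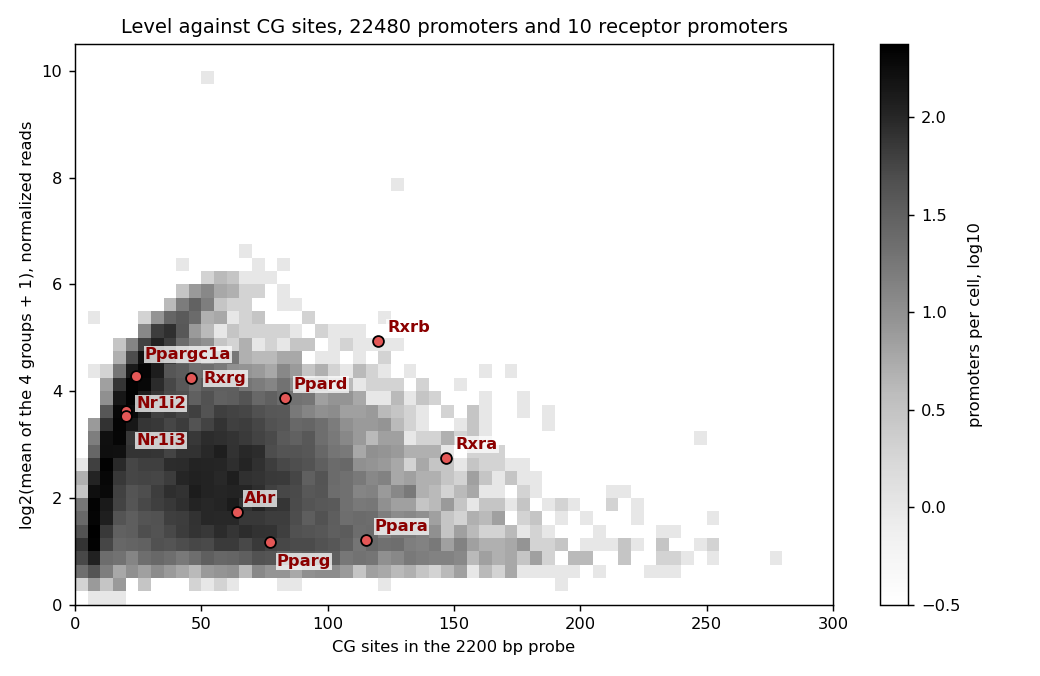
Mean of the 4 groups on a log2 scale (vertical axis, normalized reads plus 1) against the number of CG sites in the probe (horizontal axis) for all 22480 promoters, shaded by the number of promoters in each cell on a log10 scale, with the 10 receptor promoters as red points. Rxrb, at 120 CG sites, lies above nearly all promoters of like CG content. Ppara and Pparg are the lowest of the 10 and lie in the lower part of the promoters of like CG content.

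The CG sites were also placed differently along the probes. Pparg had 68 of its CG sites between 500 bp upstream and 200 bp downstream of the gene start, and only 5 and 4 in the stretches from 500 to 1000 and from 1000 to 2000 bp upstream. Rxrb had 73, 19 and 28 in the same stretches and Ppard 54, 9 and 19, so these probes reached further CG sites away from the start. Rxra had 109, 26 and 12 and Ppara 72, 32 and 11. Ppargc1a had 8 sites in each stretch, although the stretches differ in length, and Nr1i2 and Nr1i3 had 5 to 9 in each. The ratio of observed to expected CG was 0.691 in Rxra, 0.604 in Pparg and 0.6 in Rxrb, and 0.244, 0.171 and 0.167 in Ppargc1a, Nr1i3 and Nr1i2, beside a median of 0.358 over all probes. Reads are given per probe, so the position of the methylated sites within a probe cannot be read from its value alone. For Rxrb, overlapping probes narrow it, as described below.

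**Figure D3:**
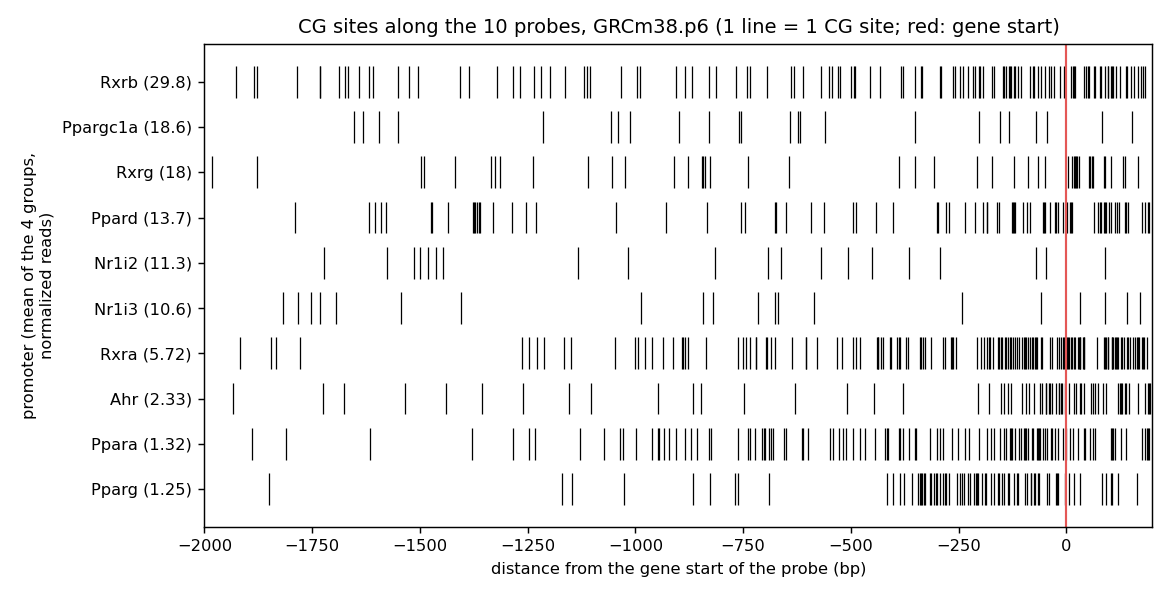
Position of each CG site along the 10 probes in GRCm38.p6, as distance in bp from the gene start (red line), with promoters ordered by the mean of the 4 groups, which is given in parentheses. Sites of Pparg, Ppara, Ahr and Rxra crowd around the start, whereas those of Ppargc1a, Nr1i2 and Nr1i3 are sparse along the whole probe.

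Each probe overlapped the first exon of its own gene in the GENCODE annotation of GRCm38, and the positions below are of mm10. The PPAR probes lie at chr15:85733564-85735763 (Ppara), chr17:28230754-28232953 (Ppard) and chr6:115359221-115361420 (Pparg), all on the plus strand. The probe of the coactivator gene Ppargc1a lies at chr5:51567505-51569704 on the minus strand. The RXR probes lie at chr2:27675201-27677400 (Rxra), chr17:34029812-34032011 (Rxrb) and chr1:167596362-167598561 (Rxrg) on the plus strand. The sensor probes lie at chr16:38294625-38296824 (Nr1i2, minus strand), chr1:171211970-171214169 (Nr1i3, plus strand) and chr12:35534790-35536989 (Ahr, minus strand). Most of each probe is upstream of its own gene's transcript. The 5′ exon shared with the probe was 97 bases in Ppargc1a and 420 in Pparg, the shortest and the longest of the PPAR group.

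The question of the treatment comparison was whether exposure before birth left a difference in the methylation of sperm at 8 weeks. In C57BL/6J, 4 of the 10 promoters had fewer reads in DEHP than in controls by more than the larger SD, namely Rxrb, Nr1i3, Ppard and Rxrg. None had more. Over all promoters, 22.6% were lower and 11.3% higher by the same rule. The median log2 ratio of DEHP over control, with a pseudocount of 1, was -0.51 over the 10 promoters and -0.10 over all promoters. By number of CG sites, the median over all promoters was 0.34 at 1 to 20 sites, -0.41 at 21 to 40 and -0.44 at 151 to 303. It lay between -0.23 and -0.13 in the other bands. The reference of all promoters is thus not matched to the 10 in CG content, and it is not matched in level either.

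Among the PPARs in C57BL/6J, Ppard had 22.3 ± 3.8 normalized reads in controls and 10.9 ± 5.1 in DEHP, a log2 ratio of -0.97 or 1.96-fold lower. This was the largest difference of the 10 relative to its spread, at -2.24 times the larger SD. The ranges that these values allow were 15.36 to 29.24 in controls and 1.64 to 20.16 in DEHP, so single libraries of both groups could still overlap. Ppara differed by a log2 ratio of 0.05 and Pparg by 0.47, each by less than 1 SD. Ppargc1a, whose product PGC-1α is a coactivator of the PPARs, had 23.3 ± 2.8 in controls and 17.8 ± 8.8 in DEHP, a log2 ratio of -0.37 within the larger SD.

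Among the RXRs in C57BL/6J, Rxrb had a log2 ratio of -1.34, 2.54-fold lower in DEHP than in controls, with possible ranges of 10.58 to 82.42 in controls and 3.97 to 31.43 in DEHP. Rxrg, the subtype of muscle and brain, had 25.8 ± 7.0 in controls and 15.9 ± 5.5 in DEHP, a log2 ratio of -0.67. Rxra, the main RXR of liver, had 7.9 ± 3.9 and 4.7 ± 1.7, a log2 ratio of -0.64 that stayed within the larger SD. All RXR means were thus lower in DEHP, under each of the 3 scalings described below, and the differences at Rxrb and Rxrg were -1.44 and -1.41 times the larger SD.

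Among the sensors in C57BL/6J, Nr1i3 had 17.4 ± 5.7 in controls and 7.5 ± 2.1 in DEHP, a log2 ratio of -1.11 or 2.16-fold lower. Nr1i2 had 15.3 ± 1.4 and 12.3 ± 5.4, and Ahr 2.4 ± 0.9 and 3.2 ± 2.2, with log2 ratios of -0.29 and 0.30 within the larger SD. CAR and PXR, which share many target genes, thus differed in whether their promoters passed the rule. Their difference from each other was not tested.

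In FVB/N, 2 of the 10 promoters had more reads in DEHP than in controls by more than the larger SD, Ahr and Ppargc1a, and none had fewer. Over all promoters, 23.4% were higher and 6.44% lower. Ahr had 0.5 ± 0.6 normalized reads in controls and 3.2 ± 1.5 in DEHP, a log2 ratio of 1.49 and a difference of 1.80 times the larger SD. The possible ranges were 0 to 1.71 in controls and 0.38 to 6.02 in DEHP. Ppargc1a had 11.6 ± 8.2 in controls and 21.5 ± 7.5 in DEHP, a log2 ratio of 0.84 and 1.21 times the larger SD. The median log2 ratio was 0.14 over the 10 promoters and 0.35 over all. By number of CG sites, the median over all promoters was 0.73 at 1 to 20 sites and -0.20 at 151 to 303. It lay between 0.11 and 0.31 in the other bands.

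The promoters that were lower in C57BL/6J DEHP gave other values in FVB/N. Rxrb had a log2 ratio of -0.61 in FVB/N, with a difference of -0.93 times the larger SD and so just within it. Ppard had 11.7 ± 6.2 in controls and 9.8 ± 3.7 in DEHP, Rxrg 14.4 ± 10.1 and 15.9 ± 5.1, and Nr1i3 8.8 ± 6.7 and 8.5 ± 2.2. Their log2 ratios were -0.23, 0.13 and -0.04. Nr1i2 had 7.4 ± 4.6 and 10.3 ± 1.5, and Rxra 5.0 ± 6.6 and 5.3 ± 3.4, neither beyond the larger SD.

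By the stricter rule, 0 of the 10 promoters had disjoint ranges in either strain. Over all promoters this rule was met by 1.42% (lower in DEHP) and 0.249% (higher) in C57BL/6J, and by 0.859% (lower) and 0.774% (higher) in FVB/N. Since no test was run, there is no unadjusted p to count.

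The groups' means did not share a common scale, and this touched the calls. The means of all promoters summed to 226268 (controls) and 153283 (DEHP) normalized reads in C57BL/6J, and to 141091.6 (controls) and 150346 (DEHP) in FVB/N, while the medians were 5.0, 5.3, 3.0 and 4.9 in this order. In C57BL/6J the sum was thus lower in DEHP but the median slightly higher, so no single factor aligned both. The 7 promoters with a negative log2 ratio in C57BL/6J had control means of 7.9 to 46.5, and the 3 with a positive one 1.1 to 2.4. Whether the change went with the level was not tested. With the means scaled to equal medians, the same 4 promoters remained lower in C57BL/6J DEHP, against 25.6% of all promoters. With the means scaled to equal sums, Rxrb and Nr1i3 remained (log2 ratios of -0.82 and -0.61), against 8.88% of all promoters, while none of the 10 was among the 27% that were higher. The median log2 ratio of all promoters in C57BL/6J moved from -0.10 to -0.16 and 0.32 under these scalings, and that of the 10 promoters from -0.51 to -0.57 and 0.00. Under equal sums, the C57BL/6J ratios of Ppargc1a (0.15) and Nr1i2 (0.21) changed sign.

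When a difference had to exceed the sum of both SDs, Ppard, Rxrb and Nr1i3 remained lower in C57BL/6J DEHP (11.7% of all promoters lower, 3.57% higher) and Ahr remained higher in FVB/N DEHP (8.58% higher, 3.65% lower). Between the strains, Ppard, Ppargc1a, Nr1i2 and Ahr remained higher in C57BL/6J controls (9.74% higher, 0.254% lower), and 0 of the 10 differed in DEHP (2.64% higher, 0.663% lower).

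In FVB/N, equal medians moved the median log2 ratio of all promoters from 0.35 to -0.18 and that of the 10 from 0.14 to -0.38. Ahr remained higher in DEHP (1.18) against 7.05% of all promoters, Ppargc1a did not (0.17), and Rxrb became lower (-1.30) against 15.2%. Under equal sums, Ahr (1.51) and Ppargc1a (0.73) were higher against 20.3% of all promoters, and Rxrb was lower (-0.73) against 7.9%. The FVB/N ratios of Pparg, Rxra, Rxrg and Nr1i2 were positive as deposited and negative under equal medians (-0.23, -0.54, -0.53 and -0.21). Rxrb had a negative log2 ratio in both strains under all 3 scalings. It passed the rule in C57BL/6J under all 3, and in FVB/N under 2 of them.

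**Figure D4:**
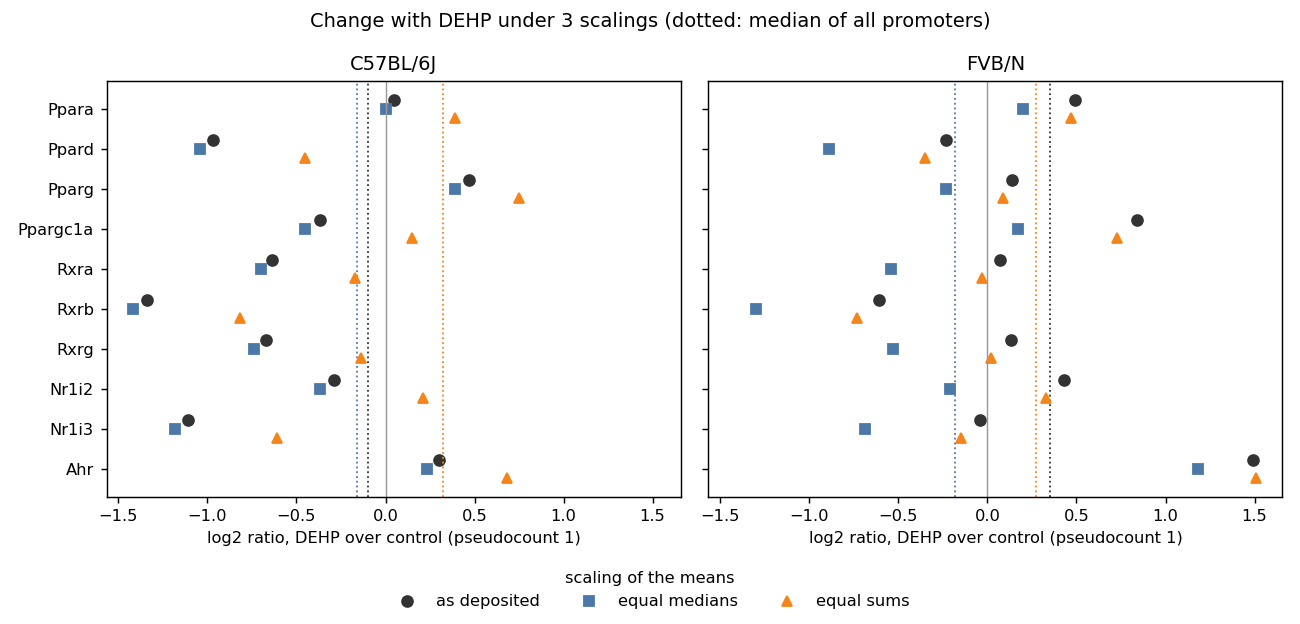
Log2 ratio of DEHP over control (horizontal axis, pseudocount of 1) at the 10 promoters in C57BL/6J (left) and FVB/N (right) under 3 scalings of the group means (symbols), with the median of all promoters under each scaling as a dotted line of the same color. Rxrb is left of 0 in both strains under each scaling and Ahr in FVB/N is right of 1, whereas Ppargc1a and Nr1i2 in C57BL/6J cross 0 with the scaling.

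Ranks within a group do not depend on its scale. Among the 22480 promoters, Rxrb stood at percentile 97.4 in C57BL/6J controls and 94.7 in DEHP, and at 98.0 and 97.0 in FVB/N, so it stayed near the top while its mean differed. Nr1i3 moved from 82.5 to 66.0 in C57BL/6J and from 79.4 to 72.1 in FVB/N. Rxra, whose log2 ratio had stayed within the larger SD, moved from 62.7 to 45.2 and from 65.4 to 53.1. Ppard moved from 87.7 to 80.8 and from 85.4 to 77.5.

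Other receptor promoters ranked higher in DEHP. Ppargc1a moved from 88.5 to 94.8 in C57BL/6J and from 85.2 to 97.0 in FVB/N. Ahr moved from 5.33 to 34.4 in FVB/N, a shift of 29.0 points that was larger than those of 93.4% of promoters, and by 1.1 points in C57BL/6J. The direction of the rank shift was the same in both strains at 8 of the 10 promoters, all but Ppara and Pparg, and at 67.6% of all promoters. The median size of the shift was 5.5 and 5.6 points at the 10 promoters and 8.2 and 9.1 points over all, in C57BL/6J and FVB/N.

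**Figure D5:**
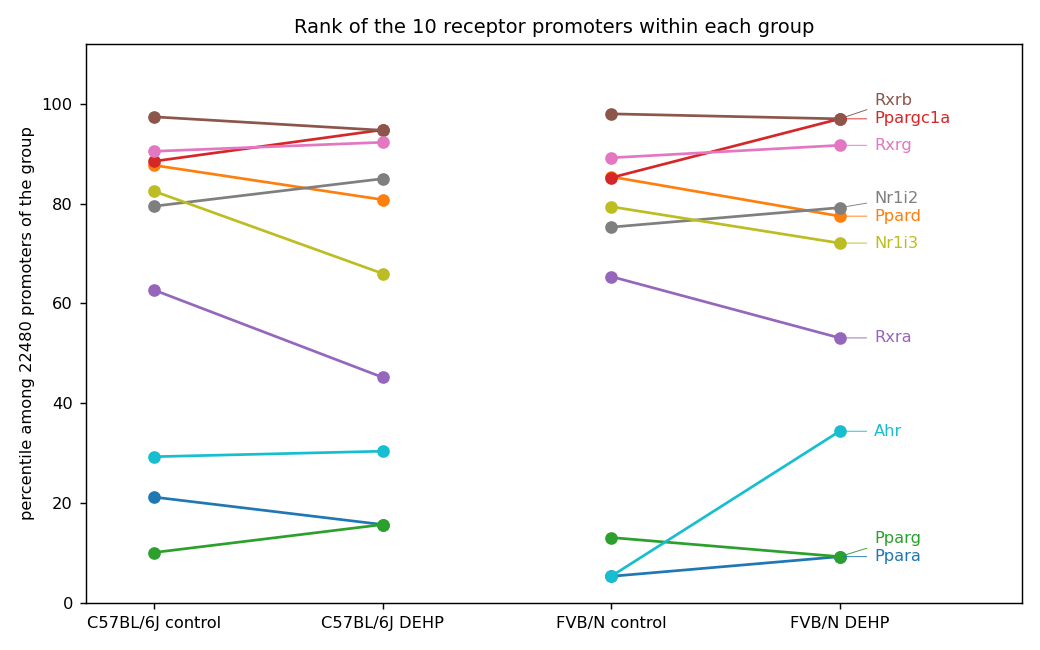
Percentile of each of the 10 promoters among the 22480 promoters of its group (vertical axis), with lines joining the control and the DEHP group of a strain. Ahr in FVB/N makes the longest step, from 5.33 to 34.4, and Rxra and Nr1i3 step down in both strains.

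The change with DEHP was set against the strain by subtracting the FVB/N log2 ratio from that of C57BL/6J. As deposited, this difference was -0.50 at the median promoter. At Ppargc1a it was -1.21 and at Ahr -1.18, lower than at all but 9.79% and 10.6% of promoters, and at Nr1i3 -1.07. Under equal medians these 3 values were -0.62, -0.94 and -0.49, beside a median of -0.01. Pparg was the only one of the 10 with a positive difference, 0.32 as deposited and 0.62 under equal medians, from means of at most 1.9 normalized reads. Rxrb differed by -0.73 as deposited but by -0.12 under equal medians and -0.09 under equal sums, so that most of its apparent strain difference went with the scale of the groups. None of these differences was tested.

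Between the strains, 6 of the 10 promoters had more reads in C57BL/6J than in FVB/N controls by more than the larger SD, namely Ppard, Ppargc1a, Rxrg, Nr1i2, Nr1i3 and Ahr, and none had fewer. Over all promoters, 29.5% were higher and 0.81% lower in C57BL/6J. The log2 ratio of C57BL/6J over FVB/N was 1.18 at Ahr, 0.96 at Nr1i2, 0.95 at Ppargc1a, 0.91 at Nr1i3, 0.88 at Ppard and 0.80 at Rxrg, beside 0.54 at the median promoter. Once the medians or the sums were made equal, only Ahr remained (0.86 and 0.80), against 5.78% and 6.57% of all promoters, and none of the 10 was among the 5.4% and 4.95% that were lower. In the DEHP groups, 0 of the 10 promoters differed between the strains by this rule, with log2 ratios between -0.27 and 0.47, while 8.35% of all promoters were higher and 3.97% lower in C57BL/6J. In DEHP groups, equal medians left 6.81% higher and 7.05% lower, and equal sums 8.15% and 4.85%, again with 0 of the 10 in either direction. By the stricter rule, 0 of the 10 differed in either comparison of strains. It was met in controls by 1.06% of all promoters (higher in C57BL/6J) and 0.0267% (lower), and in DEHP by 0.307% and 0.0311%.

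Variants between the strains were annotated by the authors for the probed promoter region. The header of that column writes the window with the bounds upstream and downstream exchanged, so the counts may refer to another window than the probe. Ahr and Ppara had 19 each, Nr1i3 16, Rxrb 5 and Pparg 3, and the other 5 promoters had none, as had 53.9% of all promoters. Ahr also carried 8 functional variants in the gene, and Ppara, Rxrg and Nr1i3 carried 1 each. At Ahr, the strain difference of controls stood beside this number of variants. The FVB/N DEHP libraries carry the same variants and had 3.2 ± 1.5 normalized reads, the same mean as C57BL/6J DEHP (3.2 ± 2.2). The part of the variants in the strain difference was not tested.

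The spread within groups was uneven. The SD over the mean had a median over all promoters of 0.489 (controls) and 0.432 (DEHP) in C57BL/6J and of 0.811 (controls) and 0.41 (DEHP) in FVB/N, and over the 10 promoters of 0.351, 0.453, 0.734 and 0.363. FVB/N controls were thus the most variable group at the 10 promoters too. The least spread was at Nr1i2 in C57BL/6J controls (15.3 ± 1.4), whose libraries could lie only between 12.66 and 17.94. Values that cannot be negative set a lower limit to the share of a group's reads held by its highest library, where equal sharing among 5 libraries would give 20%. For Ppara in FVB/N controls that limit was 78.3%, for Pparg in C57BL/6J controls 49.1% and for Rxra in FVB/N controls 46.9%. The mean of Ppara in FVB/N controls therefore rested mostly on 1 library. For Ahr in FVB/N controls the limit was 36.0%.

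The Rxrb probe shares sequence with neighbors. It overlaps the divergent gene Slc39a7, a zinc transporter on the minus strand, along 1871 bases, 1587 of them in exons. It also overlaps the transcript Gm20427 in 1087 exon bases. The probe of Slc39a7 has 521 bases in common with that of Rxrb, around the Rxrb start, and its values were 17.6 ± 4.2 and 9.6 ± 3.5 in C57BL/6J controls and DEHP while FVB/N had 11.1 ± 7.3 and 7.3 ± 4.6. The probe of H2-Ke6, a gene of steroid and fatty acid metabolism, has 244 bases in common at the far upstream end, and its values were 67.1 ± 25.7 (controls) and 21.4 ± 6.5 (DEHP) in C57BL/6J while FVB/N had 45.8 ± 17.8 (controls) and 25 ± 5.9 (DEHP). The log2 ratio of DEHP over control was -1.60 and -0.85 at H2-Ke6, beyond the larger SD in both strains under all 3 scalings. At Slc39a7 it was -0.81 in C57BL/6J, beyond the larger SD as deposited but not under equal sums (-0.30), and -0.54 in FVB/N, within it. Reads in shared bases count for both probes, so the 3 probes are not independent. The mean of reads at the bases shared with Slc39a7, which include the Rxrb start, cannot exceed the Slc39a7 mean. In C57BL/6J controls that mean was 17.6, against 46.5 for the whole Rxrb probe. At least part of the Rxrb reads therefore came from further upstream, in all 4 groups, and methylation of the Rxrb start itself was not measured apart from it. The Rxrb probe thus had fewer reads than the one reaching further upstream and more than the one reaching downstream of the start, in all 4 groups.

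Over the 4 groups, the promoters closest to Rxrb by Euclidean distance of log2 means among the other 22479 were Lefty2 (0.0846), Ubash3a (0.121) and Slc25a34 (0.151). Lefty2 had means of 47.4, 18.4, 32.7 and 20.7 in the order of groups used above. These 3 promoters held 36 to 47 CG sites, against 120 in Rxrb.

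Motifs of the receptors were searched in the 2200 bp probes on both strands. The direct repeat of AGGTCA, with any single base (N) between both copies, was in 0 of the 10 probes and in 0.387% of all probes. Its half-site AGGTCA was in 9 of 10, all but Rxrg, and in 73.9% of all. The core of the xenobiotic response element, GCGTG, was in 9 of 10, all but Nr1i3, and in 76.4% of all. It had 6 matches in Rxra, 5 in Ppara, 4 in Ppard and 3 each in Ahr and Rxrb, beside a median of 2 over all probes. This core contains a CG, and that median was not matched for CG sites. The half-site matches are contained in any match of the direct repeat.

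Genes that work with these receptors were described in the same way, from lists of partners, coregulators and targets. The shares of all promoters to set beside the counts are those given above, 11.3% higher and 22.6% lower in C57BL/6J DEHP and 23.4% higher and 6.44% lower in FVB/N DEHP. They became 27% higher and 8.88% lower in C57BL/6J under equal sums, and 7.05% higher and 15.2% lower in FVB/N under equal medians. Neither these shares nor the medians over all promoters were matched to the CG sites or the level of a list. Of 10 other RXR partners measured, 1 was higher and 2 were lower in C57BL/6J DEHP, and none passed the rule in FVB/N. Rarg, a retinoic acid receptor, had 16.4 ± 7.6 normalized reads in C57BL/6J controls and 4.5 ± 2.3 in DEHP, a log2 ratio of -1.66, and 5.9 in both FVB/N groups. Nr1h4, the bile acid receptor FXR, had 9.9 ± 2.3 and 6.4 ± 2.8 in C57BL/6J. The thyroid hormone receptor gene Thra had 0.5 ± 0.7 and 2.7 ± 1.4 in C57BL/6J. Under equal sums 3 were higher and 1 lower in C57BL/6J. The median log2 ratio of the list was -0.16 in C57BL/6J, beside -0.10 over all promoters, and 0.26 in FVB/N, beside 0.35. Under equal sums the C57BL/6J median was 0.30, beside 0.32 over all promoters.

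Of 11 coregulators measured, 3 were higher and 2 lower in C57BL/6J DEHP, and 1 was higher in FVB/N. Pprc1, a relative of PGC-1α, had 0.9 ± 1.0 in C57BL/6J controls and 3.6 ± 1.3 in DEHP, and Med1, a Mediator subunit that binds PPARs, 1.2 ± 0.9 and 3.0 ± 0.7. Lpin1, a phosphatidate phosphatase that also acts as a coactivator, had 18.5 ± 5.4 and 7.8 ± 4.1. In FVB/N these 3 promoters differed by less than the larger SD. Under equal medians 0 coregulators were higher in FVB/N, and under equal sums 4 were higher and 2 lower in C57BL/6J.

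Of 8 partners of AHR and CAR, 2 were higher and 1 lower in C57BL/6J DEHP, and 3 were higher in FVB/N. Ahrr, the repressor of AHR, had 1.0 ± 1.0 in controls and 3.5 ± 0.9 in DEHP in C57BL/6J while FVB/N had 0.6 ± 0.6 and 2.5 ± 1.5. Its log2 ratios of 1.17 and 1.13 passed the rule under all 3 scalings. Arnt, the partner of AHR, had 2.4 ± 1.3 and 5.6 ± 1.3 in FVB/N, and 4.2 ± 2.0 and 6.3 ± 2.0 in C57BL/6J, and passed in neither strain under equal medians. Arnt2, its relative, had 1.4 ± 1.4 and 4.6 ± 0.5 in FVB/N, a log2 ratio of 1.22 that passed under all 3 scalings. Under equal sums the counts in C57BL/6J were 4 higher and 0 lower. Under equal medians they were 1 and 1, and 2 higher in FVB/N. The list's median log2 ratio reached 0.51 in C57BL/6J and 0.81 in FVB/N, above the medians of all promoters under each scaling.

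Of 24 PPAR target genes, 2 were higher and 5 lower in C57BL/6J DEHP, and 4 higher and 1 lower in FVB/N. Cpt1b, the carnitine palmitoyltransferase of muscle, had 36.8 ± 13.9 and 15.0 ± 5.1 in C57BL/6J while FVB/N had 22.5 ± 4.3 and 17.2 ± 3.8. It was lower in DEHP under all 3 scalings in both strains. Ucp3, a mitochondrial carrier, had 40.2 ± 9.9 and 24.0 ± 9.9 in C57BL/6J. Cyp4a10, a fatty acid hydroxylase and classical PPARα target, had 1.2 ± 0.9 and 2.9 ± 1.0 there. Plin2, a lipid droplet protein, had 3.0 ± 2.7 and 7.0 ± 1.2 in FVB/N. Under equal medians the counts became 1 higher and 7 lower in C57BL/6J while FVB/N had 0 and 3, and under equal sums 7 and 1, and 2 and 1, so the direction of this list went with the scale.

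Of 15 targets of the xenobiotic receptors measured, 0 were higher and 3 lower in C57BL/6J DEHP, and 9 were higher and 0 lower in FVB/N. Abcc2, an export pump of conjugated drugs, had 3.3 ± 1.6 normalized reads in FVB/N controls and 9.7 ± 2.7 in DEHP, a log2 ratio of 1.32. Gsta1, a glutathione transferase, had 1.2 ± 1.7 and 5.5 ± 2.3 in FVB/N, and Cyp2b10, the classical CAR target, 4.6 ± 3.4 and 10.4 ± 3.8. Alas1, the first enzyme of heme synthesis, had 25.2 ± 8.8 and 10.2 ± 5.0 in C57BL/6J. The list's median log2 ratio in FVB/N was 0.82 beside 0.35 over all promoters, and 0.26 beside -0.18 under equal medians, where 3 were higher and 1 lower. In C57BL/6J the median was -0.05 beside -0.10, and under equal sums, where 5 were higher and 1 lower, it was 0.29 beside 0.32. None of the promoters in these 5 lists had disjoint ranges with DEHP in either strain.

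Imprinted promoters served as a check of the sperm. Of 10 promoters methylated on the maternal allele in somatic cells, and so expected to be low in sperm, 7 lay below the median of all promoters in both C57BL/6J groups, 5 in FVB/N controls and 7 in the DEHP group of that strain. In FVB/N controls the median of these 10 was 3.2, beside 3.0 over all promoters, so the check did not set them apart there. Means of these 10 ranged from 0.5 to 26.5 normalized reads, the highest being Nnat. H19, methylated on the paternal allele, had 25.3, 18.0, 18.8 and 17.5. Within the first list, Snrpn had 0.5 ± 0.7 and 4.0 ± 1.0 in C57BL/6J controls and DEHP while FVB/N had 1.1 ± 1.2 and 4.4 ± 1.2. Sgce had 5.1 ± 3.4 and 1.4 ± 1.0 in C57BL/6J while FVB/N had 10.8 ± 3.5 and 1.3 ± 1.3. Impact had 4.0 ± 1.2 and 9.5 ± 3.7 in C57BL/6J while FVB/N had 2.4 ± 1.3 and 6.1 ± 1.2. Snrpn in C57BL/6J (higher) and Sgce in FVB/N (lower) had disjoint ranges, as had 0.249% and 0.859% of all promoters in those directions. Snrpn and Impact moved opposite to Sgce with DEHP. The part of these imprinted promoters in the results at the receptor promoters was not tested. Whether each probe covers the imprinted region was not checked.

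The authors' annotation marked 5 of the 10 genes, Ahr, Pparg, Ppard, Rxra and Rxrb, for reproduction or reproductive process. None of the 10 was marked for spermatogenesis, as a sperm part or as imprinted. Of these 5, Ppard and Rxrb passed the rule in C57BL/6J and Ahr in FVB/N. Of the genes without this mark, Rxrg and Nr1i3 passed it in C57BL/6J and Ppargc1a in FVB/N. The mark thus did not set the passing promoters apart. By the same rule 22.6% of all promoters were lower in C57BL/6J DEHP and 23.4% higher in FVB/N DEHP.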

How the data were processed

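MBD-sequencing was run on sperm DNA from 20 males. The authors aligned read-pairs to mm10 with Bowtie 0.12.7, discarded pairs with several positions, with reads over 600 bp apart or without CpG in the insert, counted pairs per promoter probe and normalized them with edgeR. They kept probes with a CG site and enough reads. The deposited signal is the mean and SD of normalized reads of the 5 libraries of a group, with 1 decimal. CG sites and variants are the authors' numbers. A total of 9 columns of the authors' own fold changes, p-values and FDR, and 6 columns of expression from another dataset, were not used. On average, the authors report more and slightly longer read-pairs for DEHP than for control libraries. The depth of single libraries is unknown here.

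Log2 ratios of means used a pseudocount of 1. A difference was called when above the larger SD, and ranges were disjoint when mean ± 1.79 SD, widened by 0.05 for rounding, did not overlap, as for any 5 values. These rules were tested on simulated data with the same relative spread at all promoters. That test did not measure how often the rule of the larger SD calls unchanged promoters. Means were used as deposited, scaled to equal medians, or scaled to equal sums without the 10 highest promoters. Other alternatives were a pseudocount of 0.1, a difference above the sum of both SDs, and a mean of at least 3. The tests planned for single libraries were replaced by these rules.

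The 10 genes and all lists were chosen with earlier results of these data known. Named from each other list were promoters with disjoint ranges with DEHP, filled up to 4 by the difference over the larger SD. Values of certain listed promoters are not reported here. Sequences are from RefSeq and GRCm38.p6, where 93.2% of probes had the deposited number of CG sites, as had 9 of the 10. Python 3.11.15, numpy 2.4.6, pandas 2.3.3, matplotlib 3.10.9 and pysam 0.24.0 were used.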

Additional observations from a re-analysis of the deposited data

How the results depend on the processing

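Of 182 values under alternatives, 174 moved by no more than the spread between libraries (counts, by at most 1.5 times) and 8 by more. This limit is wide. The median log2 ratio between strains in controls counted as within it, although it went from 0.89 to 0.21 under equal medians, beside a spread of 0.99. The sign changed in 14 of the 182, in each case under another scaling, and none of these was a difference that had passed the rule. Among them, the median log2 ratio of the receptor promoters in FVB/N went from 0.14 to -0.38 under equal medians, where the calls went from 2 higher and 0 lower to 1 and 1. With means scaled to equal sums, the number of receptor promoters that differed with DEHP in C57BL/6J was 2 in place of 4. In FVB/N it was 1 in place of 2 when a difference had to exceed the sum of both SDs (Ahr), and 1 when the mean had to reach 3 normalized reads (Ppargc1a). Between strains in controls it was 1 in place of 6 under equal medians and 1 under equal sums. The log2 ratio of Rxrb in FVB/N moved to -1.30 under equal medians, and with a pseudocount of 0.1 that of Ahr moved to 2.46 in FVB/N and to 2.06 between the strains in controls. For the scalings and the stricter rules these shifts follow from their construction.

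No paired analysis was possible because the values are group means and the libraries carry no shared replicate numbers. Leaving out single libraries was not possible for the same reason. With means near 1 normalized read at Ppara, Pparg and, in FVB/N controls, Ahr, a fold depends on the pseudocount, and a further decrease was not detectable at this depth.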
